A study of Homo sapiens with 39 samples.

Results

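The comparison described here is the olaparib dose step at day 5, the 3 C4-2B libraries treated with olaparib 5 μM for 5 days set directly against the 3 treated with olaparib 1 μM for the same time, 6 of the 39 libraries in the series. C4-2B is a castration-resistant prostate cancer line derived from LNCaP, grown in RPMI medium with serum, and olaparib is an inhibitor of the PARP enzymes. The time course held 6 groups of 3 libraries: vehicle (DMSO), olaparib 1 μM and olaparib 5 μM, each at day 1 and at day 5. A separate panel of 7 groups of 3 libraries, all at 5 days, held DMSO, olaparib 1 μM, abiraterone, enzalutamide, talazoparib and the pairs abiraterone plus olaparib and enzalutamide plus talazoparib. All libraries came from this 1 parental line with no genetic change named in the labels, and no label says whether replicates were separate cultures, so the p-values measure only the spread between these samples. The question was what the higher dose added to the response at 1 μM, and what it reversed.

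PARP1 and PARP2 bind broken DNA and recruit repair factors, and olaparib both blocks their activity and holds them on the DNA, where they obstruct replication. Cells answer such damage through kinases that stabilise p53, and p53 induces CDKN1A (p21), an inhibitor of the cyclin-dependent kinases. With those kinases inhibited, RB-family proteins and the DREAM complex keep the promoters of S phase and mitotic genes silent, largely through E2F sites and through the cell cycle homology region (CHR). Luminal prostate cells also express a separate set of genes that respond to androgen, among them KLK3, which encodes PSA.

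The dose step was broad and nearly balanced in direction. Of 18502 genes tested, 4914 were higher (26.6%) and 4995 were lower (27%) at 5 μM than at 1 μM, 9909 in all or 53.6%, by edgeR's quasi-likelihood test at an adjusted p under 0.05. Many of these differences were small: the median absolute log2 fold change of the called genes was 0.33, 3180 reached 0.5 and 1235 reached 1, of which 498 rose and 737 fell. Scaling by total count alone, in place of the trimmed mean of M-values (TMM), left 10027 calls but 3881 higher and 6146 lower, so the balance of directions depended on the scaling. The 6 libraries held 36089054 to 37582020 counts each. On log2 CPM (counts in parts of the TMM-scaled library size, as CPM in all that follows), the mean distance between 5 μM and 1 μM libraries was 90.3, against 59.6 within the 5 μM group and 60.2 within the 1 μM group, and against 78.8 between the 1 μM and DMSO libraries. The share of counts from mitochondrial genes was 10.6 to 11% at 1 μM and 14.3 to 14.6% at 5 μM, and its part in the other differences was not tested.

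**Figure D1:**
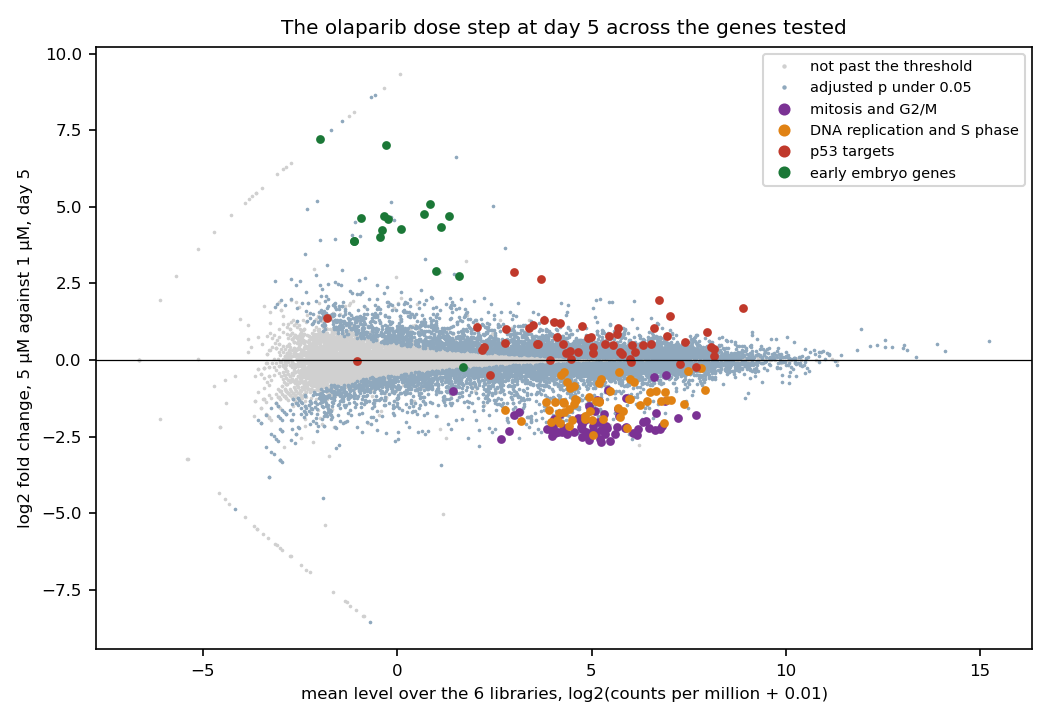
Log2 fold change of olaparib 5 μM against 1 μM at day 5 (vertical axis) by the mean level over the 6 libraries (horizontal axis, log2 of CPM plus 0.01), 1 dot per gene tested. The mitotic and S phase genes all lie below 0 and most p53 targets lie above it. The early embryo genes, listed after the values had been seen, lie high at low counts, except TRIM53AP just below 0. At low counts, a fitted fold change against a group near 0 is not a measured size.

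Sites for these factors stood at unequal rates in the promoters of the genes that moved. The windows were those of RefSeq (GRCh38.p14), 250 bases before to 50 after each start, 35116 in all, and motifs were sought on both strands. The E2F, CHR, CCAAT and p53 sequences do not contain one another. Mitotic promoters with a CHR (TTTGAA) and a CCAAT box, and an S phase promoter with E2F sites (TTTCCCGC or TTTCGCGC), are shown first. They were chosen because these gene groups fell and these windows hold the motifs. The stretches are from PLK1 (chr16:23678804-23678877, plus strand), CDC20 (chr1:43358791-43358942, plus strand) and MCM3 (chr6:52284727-52284928, minus strand), written 5′ to 3′ with CHR and CCAAT matches in capitals for the first pair and E2F matches for MCM3; TTCAAA is a CHR on the other strand.
PLK1: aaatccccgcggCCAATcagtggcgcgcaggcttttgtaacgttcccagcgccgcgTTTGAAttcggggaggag
CDC20: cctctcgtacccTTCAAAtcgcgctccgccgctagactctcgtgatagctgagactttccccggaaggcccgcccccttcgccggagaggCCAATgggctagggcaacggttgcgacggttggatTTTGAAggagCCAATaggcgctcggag
MCM3: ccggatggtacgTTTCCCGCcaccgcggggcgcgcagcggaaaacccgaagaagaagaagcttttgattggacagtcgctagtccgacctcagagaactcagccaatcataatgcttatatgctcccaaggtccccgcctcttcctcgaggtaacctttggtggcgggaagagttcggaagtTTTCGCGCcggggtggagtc

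Of 70 windows matched to 58 of the 70 mitotic genes, 47 (67.1%) held a CHR and 51 (72.9%) a CCAAT box, against 15.2% and 34.6% of all windows. Of 61 windows matched to 48 of 58 S phase genes, 16 (26.2%) held an E2F site, against 2.11% of all windows, 39 (63.9%) a CCAAT box and 3 (4.92%) a CHR. Both lists name cell cycle genes, and the letters of their windows do not depend on the dose. The shares of these lists therefore give no result about the step. A CCAAT box also stood in 47.8% of the windows of p53 targets and 62.5% of those of the early embryo genes described further on. Across all tested genes with a window, an E2F site stood in 4.71% of the windows of genes that fell, 1.94% of those of genes that rose and 2.89% of those past the threshold in neither direction, and a CHR in 12.6%, 9.19% and 9.92%. All of these CHR shares lay below that of the full set of windows, which also holds genes not tested. These matches describe the letters in the windows and do not show binding.

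A p53 response element, taken as 2 perfect half-sites of 10 bases with at most 2 bases between them, was rare. It was present in 7 of 35116 windows (0.0199%), and 4 of the 7 belonged to genes tested here. These 4 are shown because each was higher at 5 μM: LNCTAM34A (chr1:9182140-9182167, plus strand), PURPL (chr5:27472161-27472188, plus strand), PTCHD4 (chr6:48111194-48111221, minus strand) and DDB2 (chr11:47214975-47215003, plus strand), with the element in capitals.
LNCTAM34A: ctcgGAACAAGCCCAGGCAAGCCCaggc
PURPL: cccaGGGCTTGTCTGGGCATGCCCacag
PTCHD4: tgggAGGCTTGCCCAGACTTGCCCagtg
DDB2: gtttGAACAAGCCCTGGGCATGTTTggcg

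PURPL, a p53-induced long noncoding RNA, stood at 14.2, 15.2 and 14.8 CPM in the 1 μM libraries and at 61.2, 58 and 58.6 CPM in the 5 μM libraries. The groups did not overlap, as was so for 59.1% of all genes tested, and the log2 fold change was 2.01 (SE 0.051, adjusted p = 1.4e-28). The step was 1.85 for PTCHD4 (SE 0.26, adjusted p = 1.38e-07), 0.71 for LNCTAM34A, which lies beside the p53-regulated miR-34a gene (SE 0.14, adjusted p = 6.71e-05), and 0.49 for DDB2, a sensor of damaged DNA (SE 0.033, adjusted p = 1.36e-15). No window of a gene that fell held the element. The 4 genes were chosen after the motif search, and a perfect element in so short a window leaves out most known p53 sites, which often lie in introns.

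p53 targets rose as a group. Of 54 targets tested, 46 (85.2%) rose and 4 fell, with a median log2 fold change of 0.53, where the median of all genes tested was near 0. CDKN1A, on chromosome 6 from 36676460 to 36687337 in GRCh38, was at 40.4, 41.9 and 41 CPM in DMSO, 224, 228 and 227 CPM at 1 μM, and 703, 748 and 741 CPM at 5 μM. Every 5 μM library stood far above every 1 μM library, and the step was a log2 fold change of 1.69 (SE 0.022, adjusted p = 3.05e-36) on top of 2.46 from DMSO to 1 μM. GDF15, a secreted stress cytokine, was at 45.1, 43.8 and 42 CPM at 1 μM and 162, 170 and 173 CPM at 5 μM, a step of 1.95 (SE 0.04, adjusted p = 1.49e-24).

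Other p53 targets took steps of very different size. SULF2, a heparan sulfate sulfatase, was at 2.12, 2.03 and 1.62 CPM at 1 μM and 13.8, 14.6 and 14.1 CPM at 5 μM (log2 fold change 2.88, SE 0.12, adjusted p = 5.49e-22). TRIM22, an antiviral ubiquitin ligase, was at 3.78, 3.74 and 3.38 CPM and then 22, 23.3 and 22.4 CPM (2.63, SE 0.095, adjusted p = 1.3e-23). MDM2, the ligase that degrades p53, was at 248 CPM in each 1 μM library and at 314, 323 and 311 CPM at 5 μM, a step of only 0.35 (SE 0.025, adjusted p = 1.41e-14). PINCR, a long noncoding RNA induced by p53 that the lists did not hold, rose by 3.29 (SE 0.23, adjusted p = 6.23e-15), from 0.268, 0.325 and 0.307 CPM to 3.39, 2.67 and 2.81 CPM. PMAIP1 (NOXA), a cell death activator, went the other way, falling by 0.49 on the log2 scale.

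Some apoptosis regulators rose and others fell. Of 14 BCL2 family genes tested, 7 rose (50%) and 4 fell (28.6%), where 26.6% and 27% of all genes tested did. The share that fell lay near that of all genes. The death activators BBC3 (PUMA) and BMF rose by 1.01 (SE 0.088, adjusted p = 2.47e-12) and 0.99 (SE 0.084, adjusted p = 1.21e-12). The survival factor BCL2 was at 4.61, 4.2 and 4.17 CPM in DMSO, 2.15, 2.17 and 1.95 CPM at 1 μM and 0.868, 0.954 and 0.844 CPM at 5 μM, so it fell again at the higher dose by 1.23 on the log2 scale (SE 0.15, adjusted p = 5.15e-09). MCL1, another survival factor, did not pass the test at 0.00.

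Genes of cell division fell together. All 70 mitosis and G2/M genes tested fell, with a median log2 fold change of -2.19 and a range from -2.68 to -0.49. The same genes had a median of -0.57 from DMSO to 1 μM, a comparison that shares the 1 μM libraries, so most of the fall from DMSO to 5 μM (median -2.73) lay in the step between the doses. PLK1, a mitotic kinase on chromosome 16 from 23677656 to 23690367, was at 104, 108 and 102 CPM in DMSO, 66.2, 64.3 and 66.3 CPM at 1 μM and 10.4, 9.96 and 10.3 CPM at 5 μM. The step was -2.68 (SE 0.039, adjusted p = 9.37e-36), the deepest of the list. CDC20, which activates the anaphase-promoting complex, went from 75.1, 76.7 and 77.9 CPM to 11.8, 12 and 13.3 CPM (-2.63, SE 0.037, adjusted p = 5.16e-36).

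The same pattern held for other named mitotic genes. The securin PTTG1 fell by 2.60, the kinesin KIF20A by 2.58, the centromeric histone CENPA by 2.56 and the spindle protein ASPM by 2.52 on the log2 scale, with adjusted p-values from 1.62e-34 for KIF20A to 1.56e-24 for CENPA. The proliferation marker MKI67 was at 172, 188 and 180 CPM at 1 μM and 38.4, 36.4 and 39.2 CPM at 5 μM (-2.24, SE 0.04, adjusted p = 1.18e-21). FAM72B, which also fell, has near-identical copies that share reads, so its own value is uncertain. NMU, a neuropeptide gene outside these lists, had the deepest fall of any gene with a symbol and a mean of at least 100 counts in either group, from 3.94, 4.01 and 3.99 CPM to 0.476, 0.421 and 0.197 CPM (-3.44, SE 0.17, adjusted p = 1.43e-19). In bulk RNA, fewer cells in a phase of the cycle and less of the transcript per cell cannot be told apart.

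DNA replication and S phase genes fell as uniformly but less far. All 58 tested fell, with a median of -1.36 and a range from -2.43 to -0.25. MCM10, a replication initiation factor on chromosome 10 from 13161558 to 13211110, was at 54.7, 55.3 and 55.7 CPM at 1 μM and 9.66, 10.6 and 10.4 CPM at 5 μM (-2.43, SE 0.042, adjusted p = 1.03e-33). Thymidine kinase TK1 fell by 2.23 (SE 0.038, adjusted p = 2.62e-33) and CDC45, part of the replicative helicase, by 2.16 (SE 0.05, adjusted p = 8.24e-30). The windows of these 3 genes held CCAAT boxes and no E2F site of the letters searched. MCM3, a helicase subunit whose E2F sites are printed above, fell less, by 1.05 (SE 0.027, adjusted p = 1.48e-28). POLD2, a subunit of DNA polymerase delta, fell by 0.25. Among cyclins, CDK inhibitors, E2F factors and pocket proteins, 4 of 20 rose and 12 fell: E2F8 and E2F7, repressors of S phase genes, fell by 2.00 and 1.87, RBL1 by 1.69 and the CDK inhibitor CDKN2C by 1.85, while CDKN1A, CDKN2B, CCND1 and RBL2 rose.

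Most recombination repair genes fell. Of 45 homologous recombination and Fanconi anemia genes tested, 37 (82.2%) fell and 2 rose, with a median of -0.97. BRCA1 was at 88.5, 86.6 and 88.6 CPM in DMSO, 63.6, 64 and 58.1 CPM at 1 μM and 18.4, 18.4 and 17.8 CPM at 5 μM. Its step of -1.77 (SE 0.038, adjusted p = 1e-30) was close to that of BRCA2 (-1.97, SE 0.04, adjusted p = 1.8e-31). The nuclease EXO1 and the helicase BLM fell by 2.12 and 1.95. The damage kinases ATM and ATR did not pass the test, at 0.06 and 0.07, and RAD52 and SLX4 rose by 0.24 and 0.20.

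The drug's own targets fell as well. PARP1 was at 558, 556 and 559 CPM at 1 μM and 405, 414 and 404 CPM at 5 μM, a step of -0.45 (SE 0.017, adjusted p = 1.14e-22). The groups did not overlap, which held for 59.1% of all genes tested. PARP2 went from 30.9, 29.2 and 28.3 CPM to 18.6, 18.1 and 18.4 CPM (-0.68, SE 0.044, adjusted p = 4.34e-16). Of 21 PARP family and partner genes tested, 9 fell (42.9%) and 4 rose (19%), where 27% and 26.6% of all genes tested did. The median of the list was 0.003. The faller with the largest step was PARP8, at -0.93, and the cofactor HPF1 fell by 0.52. PARP4, the PARP of the vault particle, rose by 0.62, from 161, 159 and 159 CPM to 238, 250 and 244 CPM (SE 0.025, adjusted p = 7.18e-22).

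**Figure D2:**
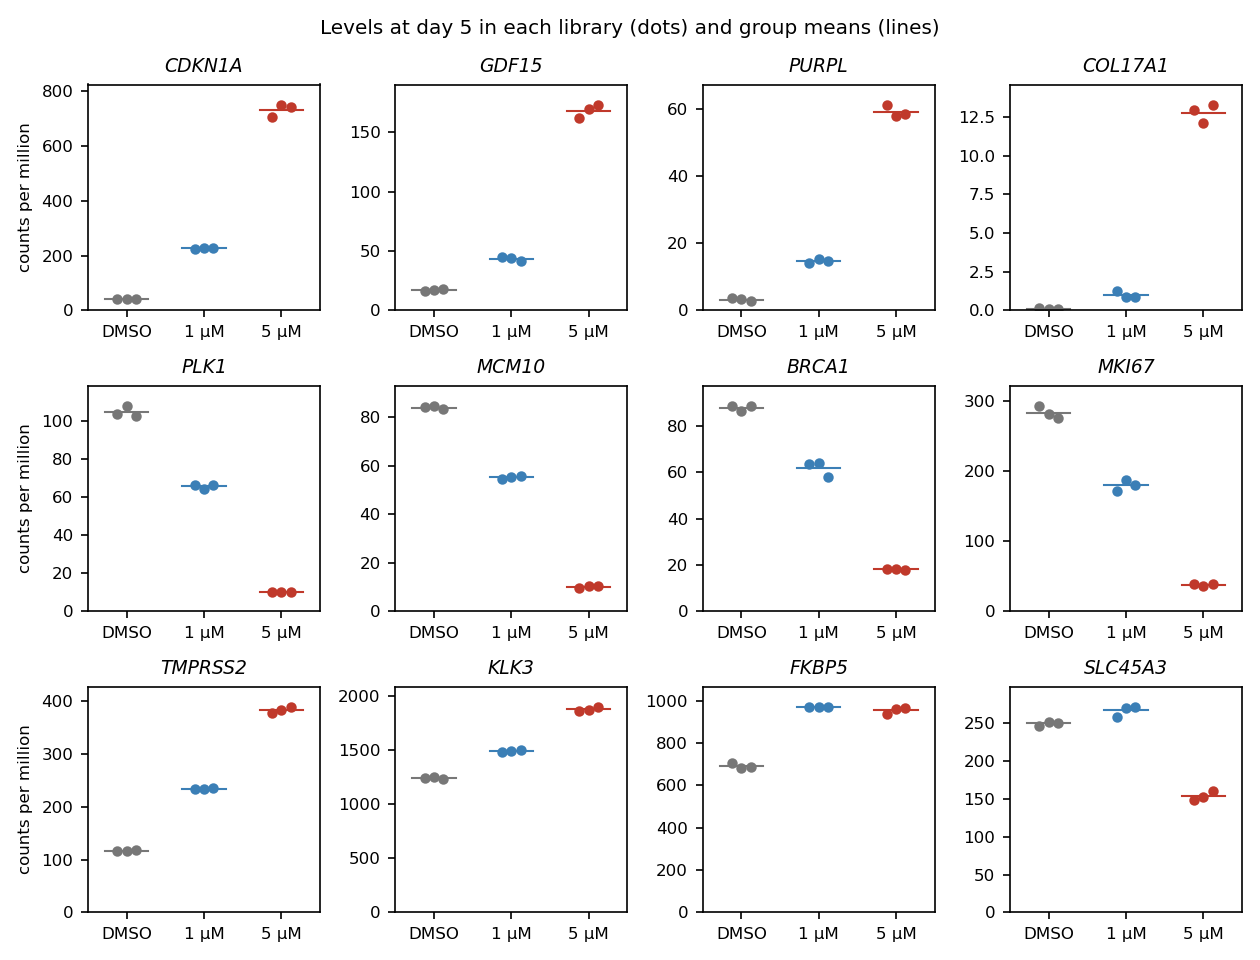
Level of 12 genes at day 5 in CPM (vertical axes, each starting at 0) by group, with 1 dot per library and a line at the mean of 3 libraries. Measured in CPM, CDKN1A, GDF15, PURPL and COL17A1 climb and PLK1, MCM10, BRCA1 and MKI67 drop most between 1 μM and 5 μM. On the log2 scale CDKN1A rose more from DMSO to 1 μM. FKBP5 differs little between the doses and SLC45A3 drops below DMSO only at 5 μM.

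Androgen response genes split at the higher dose. Of 108 tested, 54 rose, 41 fell and 13 did not pass the test, with a median of 0.11. TMPRSS2, a transmembrane protease on chromosome 21 from 41464300 to 41531116, was at 116, 116 and 119 CPM in DMSO, 234, 234 and 235 CPM at 1 μM and 377, 383 and 389 CPM at 5 μM, a step of 0.71 (SE 0.025, adjusted p = 1.05e-23). The kallikreins KLK4, KLK2 and KLK3 rose by 0.84, 0.53 and 0.33, with KLK3 at 1486, 1498 and 1499.5 CPM at 1 μM and 1866, 1871 and 1902 CPM at 5 μM (SE 0.021, adjusted p = 2.73e-12). ALDH1A3, a retinaldehyde dehydrogenase, had the largest rise of the list at 1.05 (SE 0.032, adjusted p = 6.98e-26).

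Other androgen response genes did not follow. FKBP5, a cochaperone of steroid receptors, was at 705, 684 and 686 CPM in DMSO, 969, 968 and 969.6 CPM at 1 μM and 937, 963 and 963 CPM at 5 μM. Both doses stood above DMSO and the 5 μM libraries lay just below the 1 μM libraries, but the step did not pass the test, at -0.02 (SE 0.018, adjusted p = 0.31) after a rise of 0.49 at 1 μM. With total count scaling it passed the test, at -0.08. SLC45A3 (prostein) was at 246, 251 and 250 CPM in DMSO, 258, 270 and 271 CPM at 1 μM and 148, 152 and 160 CPM at 5 μM, so it fell by 0.79 (SE 0.026, adjusted p = 2.98e-25), the deepest fall of the list. HPGD and AKAP12, which were higher at 1 μM than in DMSO by 0.77 and 0.93, fell by 0.48 and 0.52.

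Members of the immune and inflammatory lists rose in part. Of 46 interferon stimulated genes tested, 19 rose (41.3%) and 10 fell (21.7%), beside 26.6% and 27% of all genes tested, with a median of 0.10. The members at the ends were OAS1 (1.32) and IRF1 (1.30), against IFITM1 at -2.09 on few counts. IRF1, a transcription factor, went from 1.93, 2.44 and 2.54 CPM to 5.77, 5.78 and 5.46 CPM (SE 0.13, adjusted p = 6.03e-11). Of 18 MHC class I and peptide loading genes, 10 rose and 2 fell (1 fell without library 1 or without library 2 of the 5 μM group), led by NLRC5 (0.96) and the peptide transporter TAP1, from 11.2, 10.5 and 10.2 CPM to 19.9, 19.6 and 19.4 CPM (0.88, SE 0.059, adjusted p = 1.32e-15). Of 34 NF-kB and inflammatory genes listed, 18 were tested, of which 11 rose (61.1%) and 3 fell (16.7%). IL6, IL1B, TNF and CXCL8 were among those not tested for lack of counts. IGFBP3, which binds insulin-like growth factors, rose most, from 28.5, 25.9 and 30.2 CPM to 107, 109 and 107 CPM (1.93, SE 0.041, adjusted p = 9.47e-31), RELB rose by 1.68, and HMGB2 and LMNB1, chromatin and nuclear lamina genes, fell by 1.99 and 1.90.

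Most lysosomal and mitochondrially encoded genes rose and most amino acid supply genes fell. Of 34 lysosome and autophagy genes, 28 (82.4%) rose and 4 fell, with a median of 0.33. The autophagy gene GABARAPL1 went from 41.1, 37 and 41.1 CPM to 72.6, 69.2 and 71.1 CPM (0.84, SE 0.04, adjusted p = 5.09e-20). The protease CTSS had the largest value, 1.09, but its call was lost without library 3 of the 1 μM group (0.84), library 1 (1.03) or library 3 (1.03) of the 5 μM group, and with DESeq2 (1.11). Of the 13 mitochondrially encoded respiratory chain genes, 12 rose, with a median of 0.41, and MT-ND5 stood at 4656, 4689.8 and 4763 CPM and then 7352, 7407 and 7338 CPM (0.65, SE 0.024, adjusted p = 4.19e-12). Of 33 ATF4 and amino acid response genes, 21 fell and 8 rose, with a median of -0.34. The glutamine transporter SLC1A5 fell from 118, 117 and 115 CPM to 67.6, 69.1 and 68.5 CPM (-0.77, SE 0.026, adjusted p = 1.04e-24) and the serine synthesis enzymes PHGDH and PSAT1 by 0.70 each, whereas SESN2, also a p53 target, rose by 0.76. Of 20 cytosolic aminoacyl-tRNA synthetases, 14 fell and 1 rose (2 rose without library 1 of the 1 μM group), and of 34 MYC target and ribosome biogenesis genes, 24 fell and 3 rose.

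Metabolic, matrix and stress lists leaned in different directions. Of 27 xenobiotic metabolism genes, 19 rose and 2 fell, with CYP1A1, an aryl hydrocarbon receptor target, at 3.51, 3.98 and 3.77 CPM and then 8.65, 8.42 and 8.05 CPM (1.16, SE 0.13, adjusted p = 1.79e-09). Of 43 extracellular matrix and integrin genes, 24 rose and 6 fell. COL17A1, a hemidesmosomal collagen on chromosome 10 from 104031286 to 104085880, had the largest rise among genes with a mean of at least 100 counts outside multicopy families, from 1.29, 0.84 and 0.893 CPM to 12.9, 12.1 and 13.3 CPM (3.66, SE 0.15, adjusted p = 1.86e-21). HMOX1, heme oxygenase, did not pass the test from DMSO to 1 μM (0.12, adjusted p = 0.189) and rose by 1.32 at the step (SE 0.065, adjusted p = 1.64e-19), with 8.82, 9.43 and 10.3 CPM at 1 μM and 23.8, 23 and 24.5 CPM at 5 μM. CEL, a bile salt lipase, rose by 1.20 (SE 0.07, adjusted p = 3.57e-17). In the NRF2 and glutathione list 12 rose and 12 fell (41.4% each), beside 26.6% and 27% of all genes tested. In cholesterol synthesis 13 fell (54.2%) and 6 rose (25%, near the share of all genes), with INSIG1 at -0.59 and the sterol reductase TM7SF2 at 0.91. With total count scaling only 2 cholesterol synthesis genes and 5 ATF4 and amino acid response genes rose, and the members that fell numbered 4 in the xenobiotic list, 5 among luminal markers and 4 in the MHC class I list. The 3 metallothioneins tested, zinc and copper binding proteins, fell. Clustered histone genes, of which a library built by mRNA capture sees chiefly polyadenylated transcripts, divided into 12 that rose (32.4%) and 14 that fell (37.8%). Of all genes tested, 26.6% rose and 27% fell. Where a CPM of at least 1 in 3 libraries was required, 9 histone genes fell.

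The remaining lists held smaller or divided changes. Of 31 fatty acid oxidation and peroxisome genes, 17 rose and 5 fell, and of 23 fatty acid synthesis genes, 6 rose and 13 fell, with the desaturase FADS1 at -0.68. Of 39 glycolysis and hypoxia genes, 18 rose and 13 fell, with NDRG1 at 0.83. Endoplasmic reticulum chaperones and unfolded protein response genes gave 8 that rose and 15 that fell of 32, and heat shock genes 4 and 5 of 18, with the small heat shock protein HSPB8 at 1.35 and the mitochondrial chaperonin HSPD1 at -0.35. Of 30 Wnt genes, 7 rose and 10 fell, of 25 growth factor receptors 5 rose and 9 fell, with MET at -0.74, and of 9 genes of cGAS and DNA sensing 2 rose and 4 fell. The Wnt shares (23.3% rose, 33.3% fell), receptor shares (20% and 36%) and heat shock shares (22.2% and 27.8%) lay near the 26.6% and 27% of all genes tested. So did the shares of endoplasmic reticulum genes (25%) and fatty acid synthesis genes (26.1%) that rose. With total count scaling, 4 endoplasmic reticulum genes rose, and 9 heat shock and 8 fatty acid oxidation genes fell. All 8 ABC drug efflux transporters tested passed, 5 higher and 3 lower, while ABCB1 was not tested for lack of counts.

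Markers of cell identity were checked across the day 5 groups. Of 16 luminal prostate markers, 11 rose and 2 fell at the step, and their summed level was 6630 to 6660 CPM at 1 μM and 7380 to 7470 CPM at 5 μM, scaled to total counts. Basal markers summed to 61.5 to 64.4 CPM and 48.4 to 52.4 CPM, and neuroendocrine markers to 26.6 to 27.8 CPM and 19.2 to 20.2 CPM. Few genes set these sums, as 5 of 8 basal and 11 of 14 neuroendocrine markers stayed under 1 CPM in every day 5 library. Of 3 basal markers tested, 1 rose and 1 fell, and of 4 neuroendocrine markers tested, 1 rose and 1 fell. Mesenchymal and stromal markers summed to 468 to 504 CPM and 529 to 547 CPM. Of 10 mesenchymal and stromal markers tested, 4 rose, 1 fell and 5 did not pass, with a median of 0.17. Without library 1 of the 5 μM group, or with total count scaling, 2 fell. SNAI2, FN1, VIM and ACTA2 rose by 0.19, 0.14, 0.75 and 1.89 and PDGFRB fell by 0.72, with ACTA2 at 1.05, 0.84 and 1.48 CPM and then 4.48, 3.42 and 4.59 CPM. Of 19 mesenchymal and stromal markers, 10 stayed under 1 CPM in every day 5 library, and ZEB2 and LUM had no count. Leukocyte and endothelial markers summed to 26.6 to 27.5 CPM and 36.5 to 37.3 CPM, of which CD68, also a lysosomal protein, gave 15.2, 15.4 and 16.7 CPM and then 26.9, 29.6 and 28.7 CPM, while 10 of the 13 stayed under 1 CPM and MS4A1 was at 0.

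The step at day 5 was set beside the same step at day 1. At day 1, 2375 genes were higher (12.8%) and 2949 lower (15.9%), 5324 in all or 28.8%, and only 287 of them reached an absolute log2 fold change of 1, 245 up and 42 down. The difference between the days was itself tested in the same fit and passed for 6860 genes (37.1%), 3274 with a higher and 3586 with a lower step at day 5. Among differences of at least 0.5 in log2 fold change 606 were higher and 1523 lower, and among those of at least 1, 189 and 728. With total count scaling these splits were 2930 higher and 2402 lower at day 1, and 2058 higher and 5160 lower for the difference. p53 targets had already taken a larger step at day 1: 51 of 54 rose and none fell, with a median of 0.79, and the step was smaller at day 5 for 28 and larger for 7 by the test of the difference. CDKN1A took a step of 1.85 at day 1, from 196, 201 and 201 CPM to 725, 706 and 719 CPM, and MDM2 a step of 0.65, larger than at day 5 (difference tested, adjusted p = 8.26e-09). GDF15 took 2.06 at day 1, and its difference between the days did not pass (adjusted p = 0.101).

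Mitotic and S phase genes parted at day 1. Of the 70 mitotic genes, 68 had fallen at day 1, with a median of -0.63, and PLK1 was at 110, 112 and 111 CPM at 1 μM and 32.1, 33.1 and 33.5 CPM at 5 μM. Of the 58 S phase genes, 23 rose and 5 fell, with a median of 0.05. MCM10 stood at 83.6, 86.8 and 86.1 CPM at 1 μM and 84.9, 81.8 and 88.2 CPM at 5 μM on day 1, overlapping groups that did not differ in the test (adjusted p = 0.861), before its fall at day 5. BRCA1 was higher at 5 μM on day 1 by 0.14 (adjusted p = 0.000305) and lower on day 5 by 1.77. The step was lower at day 5 than at day 1 for all 58 S phase genes, 68 of the 70 mitotic genes and 36 of the 45 recombination genes by the test of the difference.

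**Figure D3:**
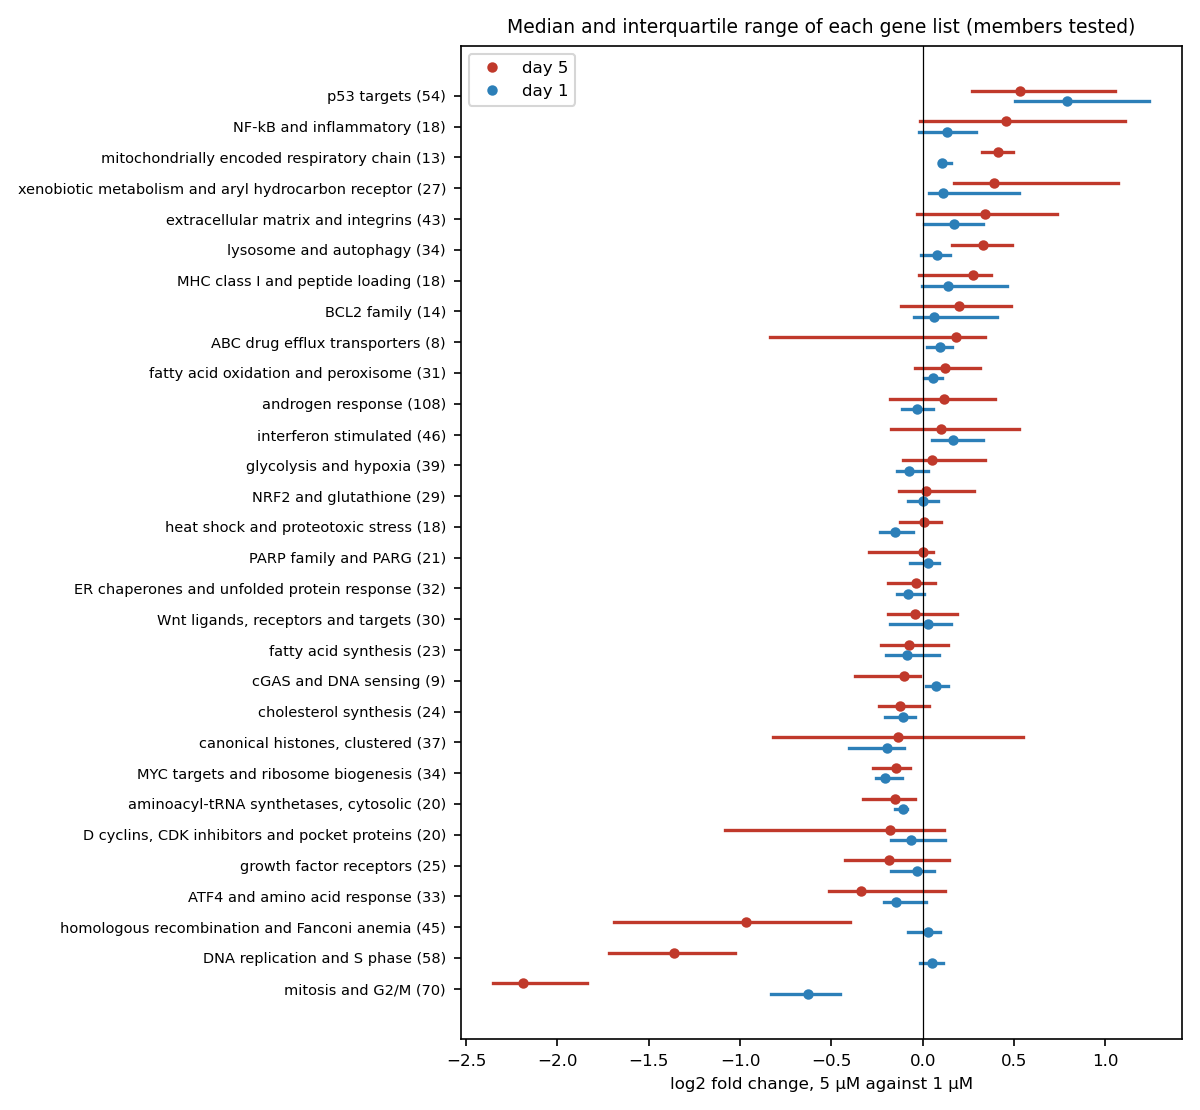
Median (dot) and interquartile range (line) of the log2 fold change of 5 μM against 1 μM over the tested members of 30 gene lists, at day 5 (red) and day 1 (blue), with the number of members in brackets. Mitotic genes sit below 0 on both days, S phase and recombination genes near 0 at day 1 and far below it at day 5, and p53 targets above 0 on both.

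The androgen response list was set beside its own day 1 step. At day 1, 17 of 108 rose and 34 fell, where 12.8% and 15.9% of all genes tested did, against 54 and 41 at day 5. By the test of the difference the step was higher at day 5 for 51 and lower for 27, where 17.7% and 19.4% of all genes were, and past the threshold in neither direction for the others. ALDH1A3 had already risen by 0.70 on day 1 (SE 0.039, adjusted p = 4.45e-17). KLK3 was at 957, 948 and 989 CPM and then 886, 885 and 846 CPM on day 1, a step of -0.15 (SE 0.022, adjusted p = 1.19e-05), so its direction turned between the days (difference 0.48, SE 0.03, adjusted p = 5.8e-12). TMPRSS2 rose by 0.12 on day 1 and by 0.71 on day 5, a difference of 0.58 (SE 0.037, adjusted p = 1.24e-15). IGFBP3 and HMOX1 also rose more at day 5 than at day 1, by 1.64 (SE 0.071, adjusted p = 1.1e-20) and 1.09 (SE 0.093, adjusted p = 4.16e-12).

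What the higher dose added or reversed was read against the panel, whose 3 olaparib 1 μM and 3 DMSO libraries are not in the time course. In the panel 6638 of 18625 genes tested (35.6%) passed the test, 3655 higher and 2983 lower, or 2885 and 3829 with total count scaling. Of the 4914 genes that rose at the step, 2506 (51%) were also raised by 1 μM in the panel, 178 (3.62%) were lowered, 2179 were past the threshold in neither direction and 51 were not tested there. Of the 4995 that fell, 2180 (43.6%) were lowered by 1 μM, 267 (5.35%) were raised, 2521 passed in neither direction and 27 were not tested. Seen from the panel, 69% of the genes tested in both and raised by 1 μM and 73.4% of those lowered moved further the same way at the step.

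Reversals were few. The 5 largest among genes with a mean of at least 100 counts were DHRS3, NES, DAPK2, NAALAD2 and MEIS1. DHRS3, a retinal reductase, had a panel value of -0.42 (adjusted p = 0.0319) and stood at 2.6, 2.17 and 1.96 CPM in DMSO, 1.47, 1.46 and 1.95 CPM at 1 μM and 4.03, 4.88 and 4.14 CPM at 5 μM, a step of 1.42 (SE 0.15, adjusted p = 5.59e-10) that carried it above DMSO. NES (nestin), raised by 0.19 in the panel, was at 29.6, 29.6 and 30.3 CPM at 1 μM and 13.4, 14.5 and 13.4 CPM at 5 μM (-1.11, SE 0.047, adjusted p = 1.24e-21). DAPK2, a death-associated kinase, rose by 1.03 (SE 0.11, adjusted p = 3.46e-10) after a panel value of -0.44. NAALAD2, a peptidase, was raised by 1.02 in the panel and by 0.77 at 1 μM in the time course, and its step of -0.84 (SE 0.13, adjusted p = 1.28e-06) brought it back to 2.04, 1.94 and 2 CPM, beside 2.07, 2.36 and 1.88 CPM in DMSO. The homeobox gene MEIS1 fell by 0.84 (SE 0.058, adjusted p = 5.06e-15), to levels below DMSO.

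**Figure D4:**
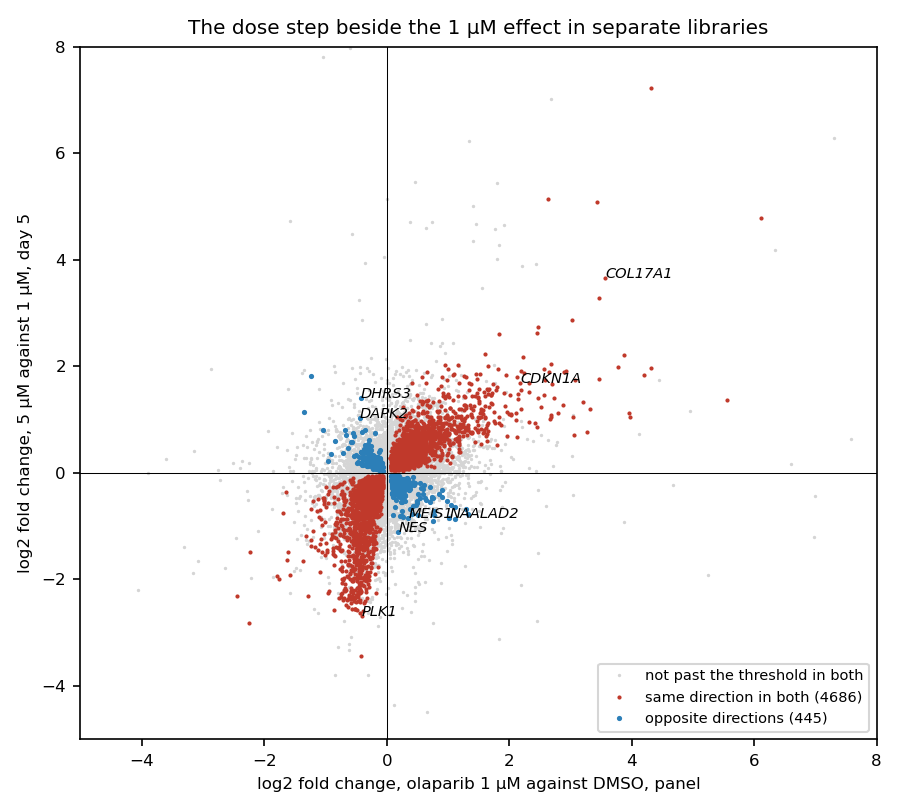
Log2 fold change of 5 μM against 1 μM at day 5 (vertical axis) by that of olaparib 1 μM against DMSO in the panel (horizontal axis), 1 dot per gene, for 17960 genes tested in both, of which 32 lie outside the axes. Genes past the threshold in both lie mostly in the quadrants of equal sign (4686, red) and seldom in those of opposite sign (445, blue).

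Within the time course, olaparib 1 μM against DMSO at day 5 gave 8566 calls (46.3%) and 5 μM against DMSO 12627 (68.2%), both sharing libraries with the step. Of the genes that rose at the step, 2916 were also higher at 1 μM than in DMSO, 211 were lower and 1787 passed in neither direction. Of those that fell, 3047 were lower at 1 μM, 233 were higher and 1715 passed in neither direction. A further 1175 genes raised and 984 lowered by 1 μM did not pass the test at the step, FKBP5 among them. A high value in the 1 μM libraries enters both of these comparisons with opposite sign, which does not hold for the panel.

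A group of genes normally transcribed in the cleavage-stage embryo, many of them known targets of the transcription factor DUX4, stood highest in the time course at 5 μM on day 5. Their list of 44 was put together after the values had been seen, so their counts are a description with no test. Summed over the 44 genes, the libraries held 60 to 94 counts in DMSO and 224, 246 and 213 at 1 μM, and 1629, 1626 and 1393 at 5 μM, against 107 to 140 at 5 μM on day 1. TRIM53AP alone gave 122 to 134 of the counts at 1 μM, and the other 43 genes summed to 32, 31 and 40 in DMSO, 96, 124 and 79 at 1 μM, and 1527, 1504 and 1299 at 5 μM. Of the 44, 17 passed the filter on low counts, which a gene could pass through the 5 μM libraries alone, so no number of calls is given for them. TRIM53AP, unlike the others that passed, was no higher at 5 μM, with 102, 122 and 94 counts against 128, 122 and 134 at 1 μM. PRAMEF36P, a pseudogene of the same family as PRAMEF2 and outside the list, had a mean of 202 counts at 5 μM against 2 at 1 μM, and its call was lost with DESeq2 although the fold was as large there (log2 fold change 6.68, against 6.61).

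Of 16 windows, matched to 14 of the 17 genes that passed the filter, 4 held the DUX4 binding motif, which stood in 84 of all windows. Since the list was put together partly from known DUX4 targets, this number supports no link to the factor, and the 4 are shown as a description only: TRIM49B (chr11:49028654-49028704, plus strand), TRIM48 (chr11:55261989-55262039, plus strand), PRAMEF8 (chr1:13285309-13285359, minus strand) and H3Y1 (chr5:17655868-17655918, minus strand), with the motif in capitals.
TRIM49B: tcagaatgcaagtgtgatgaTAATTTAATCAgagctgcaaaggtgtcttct
TRIM48: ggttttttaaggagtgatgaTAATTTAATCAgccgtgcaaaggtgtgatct
PRAMEF8: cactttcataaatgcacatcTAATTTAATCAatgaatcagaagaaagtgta
H3Y1: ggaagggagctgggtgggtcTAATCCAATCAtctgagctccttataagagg

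TRIM49B had 2, 3 and 6 counts at 1 μM and 102, 132 and 139 at 5 μM. PRAMEF8, of a family of melanoma-antigen-like genes, had 0, 0 and 1 counts and then 45, 59 and 67, and the histone variant H3Y1 had 2, 2 and 4 and then 48, 49 and 57. ZSCAN4, a zinc finger marker of the cleavage stage, had 0, 1 and 3 counts and then 29, 34 and 43. The groups did not overlap for any of these 4 genes, as was so for 59.1% of all genes tested. MBD3L2 had 2, 3 and 6 counts and then 67, 71 and 77, and PRAMEF2 had none in any 1 μM, DMSO or day 1 library of the time course and 16, 16 and 20 at 5 μM. DUX4 itself was not tested for lack of counts, with 0, 0 and 3 at 1 μM and 0, 2 and 7 at 5 μM. The TRIM43, TRIM49, PRAMEF and MBD3L genes have near-identical copies that share reads, so the counts of single members are uncertain. In the panel the sum over the 44 genes was 3.8 to 4.13 CPM on total counts with olaparib 1 μM, 17.5 to 18.4 with abiraterone plus olaparib and 9.64 to 12.1 with enzalutamide plus talazoparib, beside 37.5 to 43.8 at 5 μM in the time course.

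**Figure D5:**
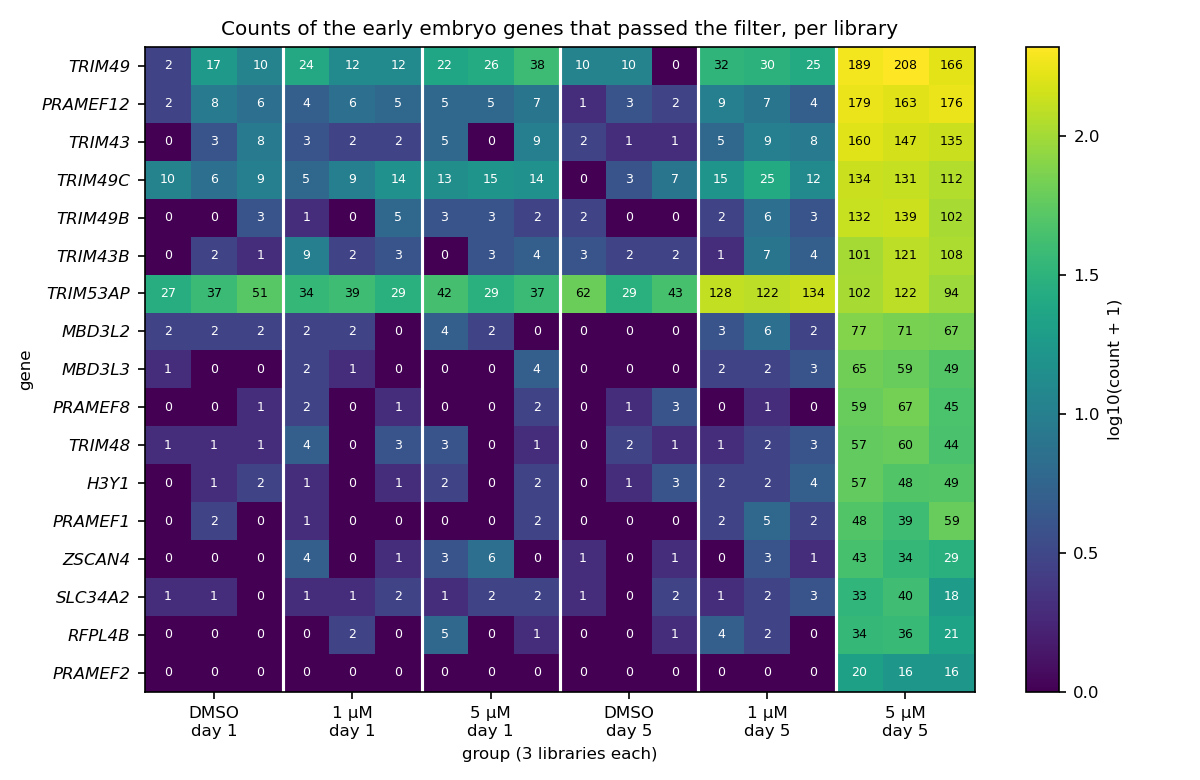
Counts of the 17 early embryo genes that passed the filter on low counts (rows) in the 18 libraries of the time course (columns, 3 per group), coloured by log10 of the count plus 1 with the count printed in each cell. The 3 libraries of 5 μM at day 5 hold 16 to 208 counts against 0 to 38 in the other 15 libraries, for every gene shown except TRIM53AP. The genes were listed after the values had been seen, and a gene could pass the filter through these 3 libraries alone. The contrast is therefore a description with no test.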

How the data were processed

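Messenger RNA of C4-2B cells was sequenced in stranded libraries. Per the labels and the study's methods, the authors trimmed reads with Trim Galore, aligned them with STAR to GRCh38 and deposited gene-level estimated counts from Salmon. The values are whole numbers and were used as deposited. No column was left unused. The time course and the panel, columns of 1 table, were fitted separately.

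Genes were filtered with filterByExpr, scaled by TMM and tested with edgeR's quasi-likelihood test (edgeR 4.0.16 in R 4.3.3) with Benjamini-Hochberg adjustment at 0.05 over all genes tested. The 6 time course groups shared 1 fit, with no replicate term. Of 63187 genes, 18502 were tested. The authors' own software was DESeq2; here DESeq2 1.42.0 is an alternative, beside other scalings, filters, thresholds, a replicate block and leaving out each library. CPM are on TMM-scaled library sizes, except sums over markers and over early embryo genes, which are on total counts. Counts per library in the time course ranged from 34214001 to 44893664. The fit was tested on simulated data. Gene positions are from GENCODE v44.

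Named genes were, among called genes with a symbol whose mean count reached 100 at 1 of the doses, the 12 largest rises and 12 largest falls, the 3 largest changes of each list, 16 genes listed by name, and the 5 largest steps in the same and in the opposite direction to the panel's 1 μM effect. Other genes named were chosen after their values were seen. The members and lists were chosen with earlier results of these data known. Some of the genes so named are not reported here.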

Additional observations from a re-analysis of the deposited data

Results flagged for a closer look

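The dose step differed between day 5 and day 1, by the test of the difference in edgeR's quasi-likelihood fit, for 6860 of 18502 genes. Of these, 603 passed the test in opposite directions on the 2 days, 336 higher at day 5 and lower at day 1 and 267 the reverse. Among the named genes, 116 of 140 differed. DTL, which marks replication factors for degradation, was at 56.3 to 58.8 CPM at 1 μM and 76.6 to 82.2 CPM at 5 μM on day 1, a step of 0.48, against -1.92 at day 5. E2F7 took a step of 0.44 at day 1 and -1.87 at day 5. With 3 libraries in a group, no library was tested as standing apart from its group.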

How the results depend on the processing

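Each comparison's total of calls stayed within 1.5 times its value under the alternatives, except where calls also had to reach 0.5 in log2 fold change of either sign: 3180 genes at the day 5 step, 778 at the day 1 step, 2129 for their difference, 2210 for 1 μM against DMSO, 6441 for 5 μM against DMSO and 1494 in the panel. With the replicate block these counts were 9875, 5236, 6801, 8492, 12592 and 6534, and none of these totals moved by over 1.5 times. Within the difference between the days, total count scaling took the higher calls from 3274 to 2058, and the balance of higher and lower calls turned at day 1, in the panel and for both doses against DMSO at day 5 (3917 higher and 4771 lower at 1 μM, 5416 and 7375 at 5 μM). Of the list counts recomputed, 1037 stayed within 1.5 times and 73 did not. Of the list medians, 342 moved by less than their spread between libraries and 139 by more. Same-numbered libraries of both doses did not deviate together (correlations of -0.00285, 0.0148 and -0.057), so the numbers were not taken to pair them. Leaving out 1 library at a time gave 9208 to 9290 genes for the day 5 step, 4443 to 4830 for day 1, 6380 to 6590 for the difference, 7737 to 7929 for 1 μM, 12113 to 12205 for 5 μM and 5647 to 6330 for the panel. DESeq2 called 9163 genes at the day 5 step. No named gene that passed the test changed direction under the alternatives run. Of the values of named genes under these alternatives, 2059 kept their side of the threshold, 31 lost it and 2 gained it, with TNC and ITGAM among the losses. The causes were not tested. Counts near 0 limit single early embryo genes.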

Other observations

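In the panel, early embryo genes summed to 1.5 to 1.65 CPM in DMSO, 4.29 to 5.29 with abiraterone, 3.34 to 3.61 with enzalutamide and 3.17 to 4.36 with talazoparib. ZSCAN4 had 21, 21 and 11 counts with abiraterone plus olaparib and 11, 12 and 17 with enzalutamide plus talazoparib, and 1 to 8 in the libraries of the single agents. These values are a description with no test.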
